A study of Saccharomyces cerevisiae with 9 samples.

Results

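The 39 genes described here encode enzymes of amino acid synthesis in Saccharomyces cerevisiae, together with GCN4, whose product activates genes of most amino acid pathways. Whether each enzyme gene is a Gcn4 target was not tested. They were chosen by name, as probes whose systematic name is the open reading frame of a listed gene: 6 histidine genes, 5 arginine genes, 7 lysine genes, 8 genes of the branched-chain amino acids, 9 genes of the aromatic amino acids, 3 serine genes and GCN4. All 39 were on the array, with 1 probe each, of 6199 genes in all, and 39 of 39 were well above background on all 9 arrays and entered the tests with 5814 genes.

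The cells were the diploid laboratory strain BY4743 in 3 groups of 3 arrays. HenGC cells were given GC from the mushroom hen of the woods and SoyGC cells GC from soybean, each at 40 ug/ml for 17 h, and the third group was a vehicle control, for which the labels give neither a dose nor a time. The labels do not spell out GC and do not say whether replicates were separate cultures, so the p-values cover no more than the spread among these arrays, part or all of which may be technical. Total RNA was labelled with Cy3 and read on Agilent arrays in 1 colour, and 92.4% to 95.8% of the 43792 spots on each array lay well above background, with 0 saturated spots.

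All groups share the deletions of this strain, which lacks HIS3, LEU2 and URA3 in whole or part and carries LYS2 and MET17 deleted on 1 of its homologues. HIS3 and LEU2, enzymes of histidine and leucine synthesis, were well above background on 0 of 9 arrays, and so was URA3. Cells without these enzymes need histidine and leucine from the medium, and the labels used here name no medium. LYS2 and MET17 were well above background on 9 of 9 arrays. Of the genes that diploid cells keep off, STE2, STE3, MFA1, MF(ALPHA)1 and MF(ALPHA)2 were above background on 9 arrays, MFA2 on 7 and HO on 4. All of them were dim. Their highest linear signal was 221, for MF(ALPHA)2, where the median probe of an array stood at 1772 to 2634. Whether such dim signals reflect expression of these genes was not tested.

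Gcn4 is a transcription factor that switches on genes of most amino acid pathways when an amino acid runs short, a response known as general amino acid control. Uncharged transfer RNA activates the kinase Gcn2, which lowers general translation while letting ribosomes reach the GCN4 coding region past short upstream reading frames. Gcn4 is thus set largely at translation and by rapid degradation, so that its mRNA level alone does not report its activity, and the mRNA of its target genes is the usual readout.

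Levels below are log2 signals relative to the 75th percentile of each array, given for replicates 1 to 3 of a group in that order. Differences are of group means on the same log2 scale, with the standard error (SE) and 3 arrays per group, and were tested with limma over all genes. Brackets hold the 95% confidence interval. Levels of different genes come from different probes and are not compared. In bulk RNA, fewer cells that express a gene and less RNA per cell cannot be told apart.

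No synthesis gene, nor GCN4, was called different from vehicle in either treatment: 0 of 39 passed limma's test at an adjusted p under 0.05 in HenGC against vehicle, 0 of 39 in SoyGC against vehicle and 0 of 39 in HenGC against SoyGC. Over all genes tested, 1.19%, 9.27% and 0% passed in these comparisons. limma's F-test for any difference among the 3 groups also called 0 of 39, where 1.91% of all genes passed, and the lowest adjusted p of a member was 0.0745. At an unadjusted p under 0.05 the F-test gave 5 of 39 members, or 12.8%, against 26.8% of all genes.

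In HenGC 2 members had positive and 5 negative differences at an unadjusted p under 0.05, where 8.51% and 12.8% of all genes did so. The sum is 17.9% of 39, against 21.4% of all genes. These were ARG8 and LEU1 on the positive side and LYS1, ILV1, ILV6, TRP5 and ARO1 on the negative side. In SoyGC they were 3 positive members, ARG8, LYS20 and ARO7, and 7 negative ones, HIS4, LYS1, LEU4, ILV3, ILV6, TRP5 and ARO1, where 10.9% and 16.7% of all genes did so, and the sum is 25.6% against 27.6%. Both sets of differences use the same vehicle arrays, so a gene named in both is not seen independently. The shares lay near or below those of all genes.

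The size of the differences was also read from 95% intervals, gene by gene, in the fit with a mean per group and no slide term. With slide as a fixed block LEU1 in HenGC was at 0.85, so the bounds below hold for the former fit only. In the slide fit the HenGC difference rests on HenGC 3 alone, since HenGC 1 and 2 were the only arrays on slide 2. The 95% interval lay within 2-fold either way for 39 of 39 members in HenGC and 37 of 39 in SoyGC, the exceptions being LYS20 and ARO7, against 87% of all genes in HenGC and 86.3% in SoyGC. It lay within 1.5-fold for 30 members in HenGC, where 61.7% of all genes did so, and for 28 in SoyGC, against 58%. Differences ran from -0.43 to 0.48 in HenGC and from -0.43 to 0.60 in SoyGC. Their median size was 0.15 in HenGC, against 0.19 over all genes, and 0.14 in SoyGC, against 0.20. The members and all genes were not matched for signal strength or spread.

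**Figure D1:**
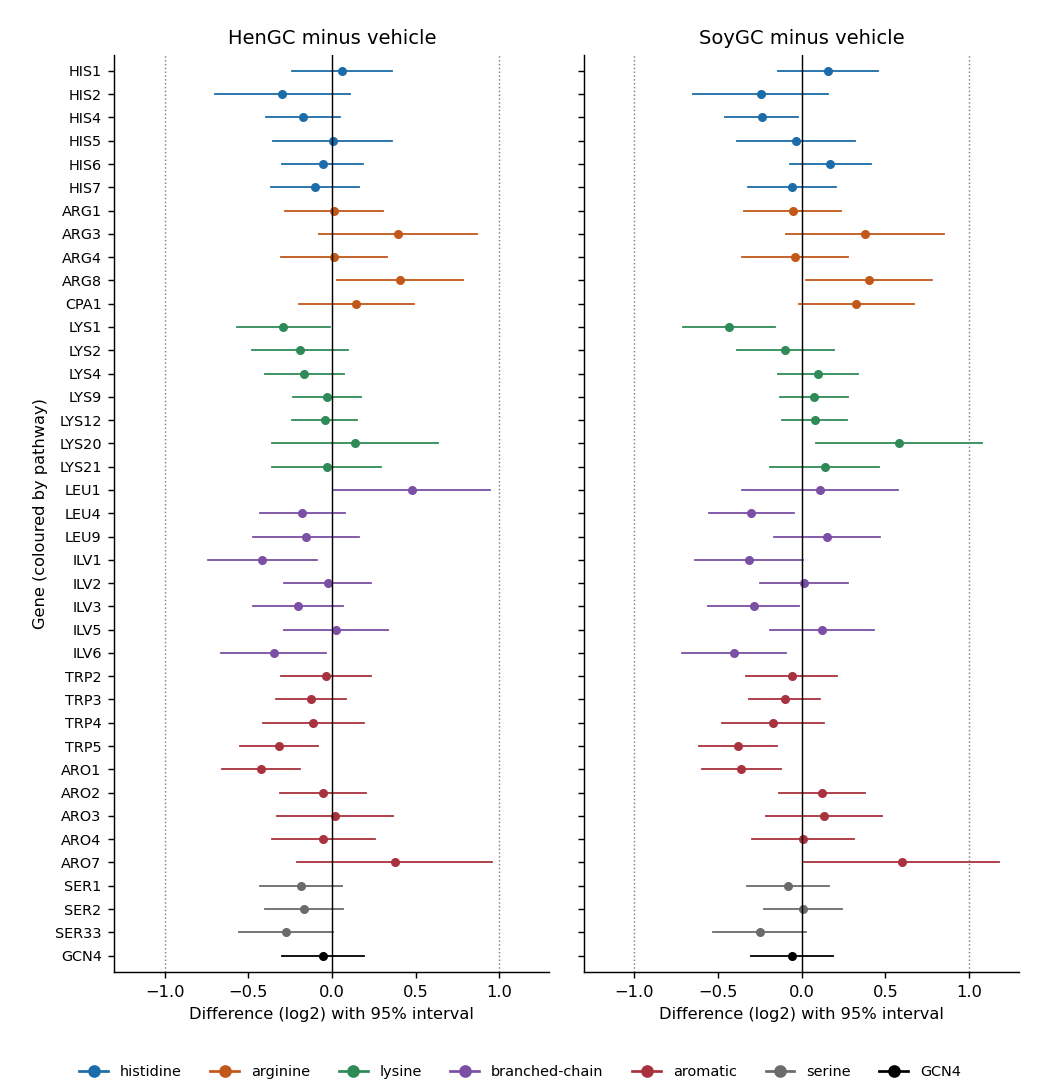
Difference of each of the 39 genes (points) with its 95% confidence interval (lines) in HenGC minus vehicle (left) and SoyGC minus vehicle (right), on a log2 scale, coloured by pathway, with dotted lines at 2-fold. The intervals of LYS20 and ARO7 cross the upper dotted line in SoyGC, and 0 of 39 genes passed limma's test in either comparison.

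GCN4 itself (YEL009C) lay within 1.5-fold of vehicle by its 95% interval in both treatments. It stood at 3.21, 3.17 and 2.97 in HenGC, 3.29, 3.08 and 2.98 in SoyGC and 3.20, 3.17 and 3.15 in vehicle. The 3 groups overlapped, with the lowest values in the third replicates of HenGC and SoyGC. The difference was -0.054 ± 0.11 [-0.30, 0.19] in HenGC and -0.056 ± 0.11 [-0.30, 0.19] in SoyGC (limma adjusted p = 0.777 in HenGC and 0.763 in SoyGC), and 0.0017 ± 0.11 between HenGC and SoyGC. The group means were 3.12 ± 0.13 in HenGC, 3.12 ± 0.16 in SoyGC and 3.17 ± 0.02 in vehicle (SD, n = 3 each).

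The 5 genes whose values followed GCN4 most closely over the 9 arrays were AAD3, a putative aryl-alcohol dehydrogenase, with a Pearson r of 0.96, the ribosome-associated TMA19 and the peroxin PEX10, with 0.94 each, and the ribosomal protein gene RPL2B and YJL119C, with 0.93 each. Among the other 38 members the r with GCN4 ran from -0.55 for LYS9 to 0.86 for HIS5, with a median of 0.41 and 30 positive, against a median of 0.05 over 5813 genes. All these values share the same 9 arrays and scaling, and GCN4 covered only 2.97 to 3.29, so they describe these arrays. RPL2B has a near-identical copy in the genome, and its signal cannot be assigned to it with certainty. AAD3, at -7.07 to -6.35 over the arrays, and YJL119C, at -6.10 to -5.41, were dim.

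Of the histidine genes 0 of 6 passed in either treatment, with a median difference of -0.078 in HenGC and -0.046 in SoyGC. The HenGC median turned to 0.00094 without vehicle 3, 0.035 on scan day 1 alone and 0.016 with array weights, and the SoyGC median to 0.019 after quantile normalization, 0.013 without vehicle 3, 0.0034 without SoyGC 3 and 0.062 on scan day 1 alone. HIS1, the ATP phosphoribosyltransferase that opens the pathway and that histidine inhibits, stood at 3.53, 3.45 and 3.30 in HenGC, 3.74, 3.32 and 3.51 in SoyGC and 3.20, 3.38 and 3.52 in vehicle. It had the highest difference of the pathway in HenGC, 0.062 ± 0.13, and 0.16 ± 0.13 in SoyGC, with overlapping groups. HIS2, the histidinol phosphatase, had the lowest in both. Its level was 0.0055, -0.093 and 0.31 in HenGC, 0.055, -0.0087 and 0.33 in SoyGC and 0.27, 0.12 and 0.73 in vehicle. The third replicate was the highest array of each group, and the differences were -0.30 ± 0.18 in HenGC and -0.25 ± 0.18 in SoyGC (limma adjusted p = 0.339 in HenGC and 0.409 in SoyGC). Without vehicle 3 they were -0.12 in HenGC and -0.069 in SoyGC.

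HIS6, an isomerase in the middle of the pathway, had the highest difference in SoyGC. It stood at -1.72, -1.64 and -1.87 in HenGC, -1.40, -1.54 and -1.60 in SoyGC and -1.67, -1.81 and -1.58 in vehicle. SoyGC overlapped vehicle, at 0.17 ± 0.11, while all 3 HenGC arrays lay below all 3 SoyGC arrays, at -0.23 ± 0.11 (limma adjusted p = 0.424). HIS4, a protein with 3 enzyme activities of the pathway and a classic Gcn4 target, differed by -0.17 ± 0.097 in HenGC and -0.24 ± 0.097 in SoyGC, where its arrays lay below all vehicle arrays (limma adjusted p = 0.151). HIS5, the aminotransferase, and HIS7, the glutamine amidotransferase and cyclase, differed by 0.0046 and -0.10 in HenGC and -0.034 and -0.058 in SoyGC.

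Arginine genes had the highest pathway median in both treatments, 0.15 in HenGC with 5 of 5 positive differences and 0.33 in SoyGC with 3 of 5, the HenGC median turning negative in the unscaled table that the authors deposited. None of the 5 passed the test (lowest limma adjusted p = 0.211 in HenGC and 0.157 in SoyGC). ARG8, the acetylornithine aminotransferase of the mitochondrial ornithine steps, stood at -1.93, -1.97 and -2.45 in HenGC, -1.85, -2.18 and -2.33 in SoyGC and -2.59, -2.47 and -2.50 in vehicle. It was the 1 member whose HenGC and SoyGC arrays all lay above all vehicle arrays. The difference was 0.41 ± 0.17 [0.030, 0.78] in HenGC and 0.40 ± 0.17 [0.027, 0.78] in SoyGC (limma adjusted p = 0.211 in HenGC and 0.157 in SoyGC). Within scan day 1, which held replicates 1 and 2, it was 0.58 in HenGC and 0.52 in SoyGC, and within scan day 2, which held replicate 3, it was 0.051 in HenGC and 0.17 in SoyGC. Without SoyGC 1 the SoyGC difference was 0.27.

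ARG3, the ornithine carbamoyltransferase, differed by 0.40 ± 0.21 in HenGC and 0.38 ± 0.21 in SoyGC, and CPA1, the small subunit of the carbamoyl phosphate synthetase that feeds it, by 0.15 ± 0.15 in HenGC and 0.33 ± 0.15 in SoyGC. The closing steps of the pathway lay nearest to vehicle. ARG1, the argininosuccinate synthetase, was at 4.05, 3.96 and 3.84 in HenGC, 4.11, 3.67 and 3.87 in SoyGC and 3.84, 3.90 and 4.08 in vehicle, a difference of 0.014 ± 0.13 in HenGC and -0.055 ± 0.13 in SoyGC. ARG4, the argininosuccinate lyase, was at 2.46, 2.25 and 2.26 in HenGC, 2.44, 2.03 and 2.33 in SoyGC and 2.21, 2.19 and 2.53 in vehicle, a difference of 0.013 ± 0.14 in HenGC and -0.042 ± 0.14 in SoyGC. Both genes had their highest SoyGC value on replicate 1 and their lowest on replicate 2.

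Lysine genes had medians of -0.043 in HenGC, with 6 of 7 negative, and 0.078 in SoyGC, with 5 of 7 positive, and the HenGC median turned positive after quantile normalization. LYS1, the saccharopine dehydrogenase that forms lysine in the last step, stood at 0.74, 0.75 and 0.72 in HenGC, 0.72, 0.47 and 0.57 in SoyGC and 0.92, 0.88 and 1.27 in vehicle. All treated arrays lay below all vehicle arrays. The difference was -0.29 ± 0.12 in HenGC (limma adjusted p = 0.219) and -0.43 ± 0.12 [-0.71, -0.16] in SoyGC (limma adjusted p = 0.0569). The SoyGC value on scan day 1 was -0.30 and on scan day 2 -0.70, with vehicle 3 the highest vehicle array, and without vehicle 3 it was -0.31 (limma adjusted p = 0.104), while the HenGC value was then -0.17. It passed in 3 of 21 alternative settings, with scan day as a block, slide as a random block and array weights, over a range of adjusted p from 0.00913 to 0.337.

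LYS20 and LYS21 encode homocitrate synthases, which open the lysine pathway. LYS20 stood at 1.84, 1.37 and 1.49 in HenGC, 2.31, 1.53 and 2.19 in SoyGC and 1.37, 1.23 and 1.68 in vehicle, with a difference of 0.14 ± 0.22 in HenGC and 0.58 ± 0.22 [0.084, 1.08] in SoyGC (limma adjusted p = 0.125). SoyGC 1 and 3 lay above all vehicle arrays and SoyGC 2 among them. LYS21 stood at 1.84, 1.69 and 2.02 in HenGC, 2.05, 1.82 and 2.19 in SoyGC and 1.85, 1.71 and 2.09 in vehicle, with differences of -0.032 ± 0.14 in HenGC and 0.14 ± 0.14 in SoyGC. Its groups overlapped throughout, and the difference between the LYS20 and LYS21 responses was not tested. The probe sequences were not used here, so cross-hybridisation between such paralogs cannot be judged.

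The other lysine genes encode steps between these ends. LYS2, the aminoadipate reductase, differed by -0.19 ± 0.13 in HenGC and -0.098 ± 0.13 in SoyGC, and LYS4, the homoaconitase, by -0.16 ± 0.11 in HenGC and 0.098 ± 0.11 in SoyGC. LYS9, the saccharopine dehydrogenase that forms saccharopine, and LYS12, the homoisocitrate dehydrogenase, lay within 0.078 of vehicle in both treatments.

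The branched-chain pathway had negative medians, -0.17 in HenGC with 6 of 8 negative and -0.14 in SoyGC with 4 of 8, and 0 of 8 passed. ILV1, the threonine deaminase that commits threonine to isoleucine, was at 1.23, 1.19 and 1.43 in HenGC, 1.44, 1.20 and 1.51 in SoyGC and 1.67, 1.48 and 1.96 in vehicle. HenGC lay below all vehicle arrays, at -0.42 ± 0.14 [-0.74, -0.091] (limma adjusted p = 0.162), and SoyGC overlapped them, at -0.32 ± 0.14, or -0.19 without vehicle 3. ILV6 encodes the regulatory subunit of acetolactate synthase, through which valine inhibits the enzyme. It was at 2.34, 2.39 and 2.25 in HenGC, 2.53, 2.07 and 2.20 in SoyGC and 2.50, 2.69 and 2.84 in vehicle, with differences of -0.35 ± 0.14 in HenGC and -0.41 ± 0.14 in SoyGC (limma adjusted p = 0.2 in HenGC and 0.093 in SoyGC). Its catalytic partner ILV2 differed by -0.025 ± 0.12 in HenGC and 0.015 ± 0.12 in SoyGC.

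ILV5, the reductoisomerase, and ILV3, the dihydroxyacid dehydratase, carry out further steps shared by isoleucine and valine. ILV5 differed by 0.025 ± 0.14 in HenGC and 0.12 ± 0.14 in SoyGC, and ILV3 by -0.20 ± 0.12 in HenGC and -0.29 ± 0.12 in SoyGC (limma adjusted p = 0.159 in SoyGC).

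In the leucine branch, LEU4 and LEU9 encode isopropylmalate synthases. LEU4 was at 4.45, 4.40 and 4.29 in HenGC, 4.47, 4.15 and 4.15 in SoyGC and 4.49, 4.52 and 4.66 in vehicle, all treated arrays below all vehicle arrays, with differences of -0.18 ± 0.11 in HenGC and -0.30 ± 0.11 in SoyGC (limma adjusted p = 0.365 in HenGC and 0.123 in SoyGC). LEU9 was at 0.59, 0.33 and 0.45 in HenGC, 1.01, 0.51 and 0.75 in SoyGC and 0.57, 0.51 and 0.75 in vehicle, with differences of -0.16 ± 0.14 in HenGC and 0.15 ± 0.14 in SoyGC and overlapping groups. LEU1, the isopropylmalate isomerase of the next step, was at 2.31, 2.04 and 2.80 in HenGC, 2.33, 1.75 and 1.95 in SoyGC and 1.83, 1.84 and 2.04 in vehicle. The HenGC arrays lay above all vehicle arrays, with HenGC 3 the highest of the 9, and the difference was 0.48 ± 0.21 [0.012, 0.94] (limma adjusted p = 0.226), or 0.27 without HenGC 3 (limma adjusted p = 0.41). In SoyGC it was 0.11 ± 0.21, and HenGC minus SoyGC was 0.37 ± 0.21 (limma adjusted p = 0.514).

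Aromatic genes held the lowest adjusted p of the members in each treatment, ARO1 in HenGC and TRP5 in SoyGC. The pathway median was -0.053 in HenGC, with 7 of 9 negative, and -0.060 in SoyGC, with 5 of 9, and both turned positive after quantile normalization and on scan day 1 alone, that of HenGC also with array weights and without HenGC 3 (0.022) and that of SoyGC without vehicle 3 (0.027). ARO1, a protein with 5 enzyme activities that carries the shikimate pathway toward chorismate, stood at 1.47, 1.46 and 1.51 in HenGC, 1.66, 1.48 and 1.50 in SoyGC and 1.95, 1.73 and 2.04 in vehicle. The treated arrays all lay below the vehicle arrays. Its difference was -0.43 ± 0.10 [-0.66, -0.19] in HenGC (limma adjusted p = 0.0855) and -0.36 ± 0.10 [-0.59, -0.13] in SoyGC (adjusted p = 0.0604). With array weights it passed in both, at a limma adjusted p of 0.0294 in HenGC and 0.0358 in SoyGC. Without vehicle 3 the HenGC difference was -0.36 (limma adjusted p = 0.175). Across the alternatives the SoyGC adjusted p reached 0.412.

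TRP5, the tryptophan synthase, stood at 3.79, 3.83 and 3.81 in HenGC, 3.85, 3.66 and 3.74 in SoyGC and 4.06, 4.02 and 4.31 in vehicle, again with no overlap. Its difference was -0.32 ± 0.10 in HenGC (limma adjusted p = 0.151) and -0.38 ± 0.10 [-0.61, -0.15] in SoyGC (limma adjusted p = 0.0516). The SoyGC value was -0.29 within scan day 1, -0.57 within scan day 2 and -0.29 (limma adjusted p = 0.104) without vehicle 3. In SoyGC it passed in 4 of 21 alternatives, with scan day as a block, slide as a random block, normexp background correction and array weights, over a range of adjusted p from 0.00933 to 0.376, and in HenGC in 1, with array weights. The other tryptophan genes, TRP2 and TRP3 of anthranilate synthase and TRP4, the anthranilate phosphoribosyltransferase, differed by -0.035, -0.13 and -0.11 in HenGC and -0.060, -0.10 and -0.17 in SoyGC.

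ARO7, the chorismate mutase that turns chorismate toward phenylalanine and tyrosine, had the widest interval of the members. It stood at -0.78, -0.95 and -0.89 in HenGC, -0.93, -0.55 and -0.48 in SoyGC and -0.95, -0.88 and -1.92 in vehicle. Vehicle 3 lay -1.01 from the mean of vehicle 1 and 2, while the other 8 arrays covered -0.95 to -0.48. The difference was 0.38 ± 0.26 in HenGC and 0.60 ± 0.26 [0.015, 1.18] in SoyGC (limma adjusted p = 0.392 in HenGC and 0.171 in SoyGC), and without vehicle 3 it was 0.040 (limma adjusted p = 0.925) in HenGC and 0.26 (limma adjusted p = 0.305) in SoyGC.

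ARO3 and ARO4 encode the DAHP synthases that open the pathway, inhibited by phenylalanine and by tyrosine. ARO3 was at 1.59, 1.62 and 1.10 in HenGC, 1.71, 1.53 and 1.41 in SoyGC and 1.40, 1.52 and 1.33 in vehicle, with differences of 0.019 ± 0.15 in HenGC and 0.13 ± 0.15 in SoyGC. ARO4 was at 3.69, 3.64 and 3.29 in HenGC, 3.80, 3.50 and 3.49 in SoyGC and 3.50, 3.57 and 3.70 in vehicle, with differences of -0.050 ± 0.14 in HenGC and 0.0095 ± 0.14 in SoyGC. Both pairs of groups overlapped, and ARO2, the chorismate synthase, differed by -0.053 ± 0.11 in HenGC and 0.12 ± 0.11 in SoyGC. ARO4 is the neighbour of HIS7 in the gene table of assembly R64, and HIS7 lay -0.10 in HenGC and -0.058 in SoyGC from vehicle.

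Serine genes had 3 of 3 negative differences in HenGC, with a median of -0.19, and 2 of 3 in SoyGC, with a median of -0.082 that turned to 0.0053 after quantile normalization and 0.0017 without SoyGC 3. SER33, a phosphoglycerate dehydrogenase that starts serine synthesis from glycolysis, was at -0.14, 0.12 and 0.31 in HenGC, 0.12, 0.19 and 0.048 in SoyGC and 0.42, 0.26 and 0.43 in vehicle. SoyGC lay below all vehicle arrays and HenGC 3 among them, and the differences were -0.28 ± 0.12 in HenGC and -0.25 ± 0.12 in SoyGC (limma adjusted p = 0.24 in HenGC and 0.224 in SoyGC), the HenGC value being -0.16 without HenGC 1. SER2, the phosphoserine phosphatase of the last step, was at 0.37, 0.55 and 0.30 in HenGC, 0.61, 0.66 and 0.46 in SoyGC and 0.48, 0.61 and 0.62 in vehicle, with differences of -0.17 ± 0.10 in HenGC and 0.0070 ± 0.10 in SoyGC. SER1, the phosphoserine aminotransferase between them, differed by -0.19 ± 0.11 in HenGC and -0.082 ± 0.11 in SoyGC. SER3, the paralog of SER33 and no member, was at 1.79, 2.24 and 1.57 in HenGC, 1.59, 1.73 and 1.34 in SoyGC and 1.65, 1.57 and 1.61 in vehicle, with differences of 0.26 ± 0.17 in HenGC and -0.060 ± 0.17 in SoyGC.

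**Figure D2:**
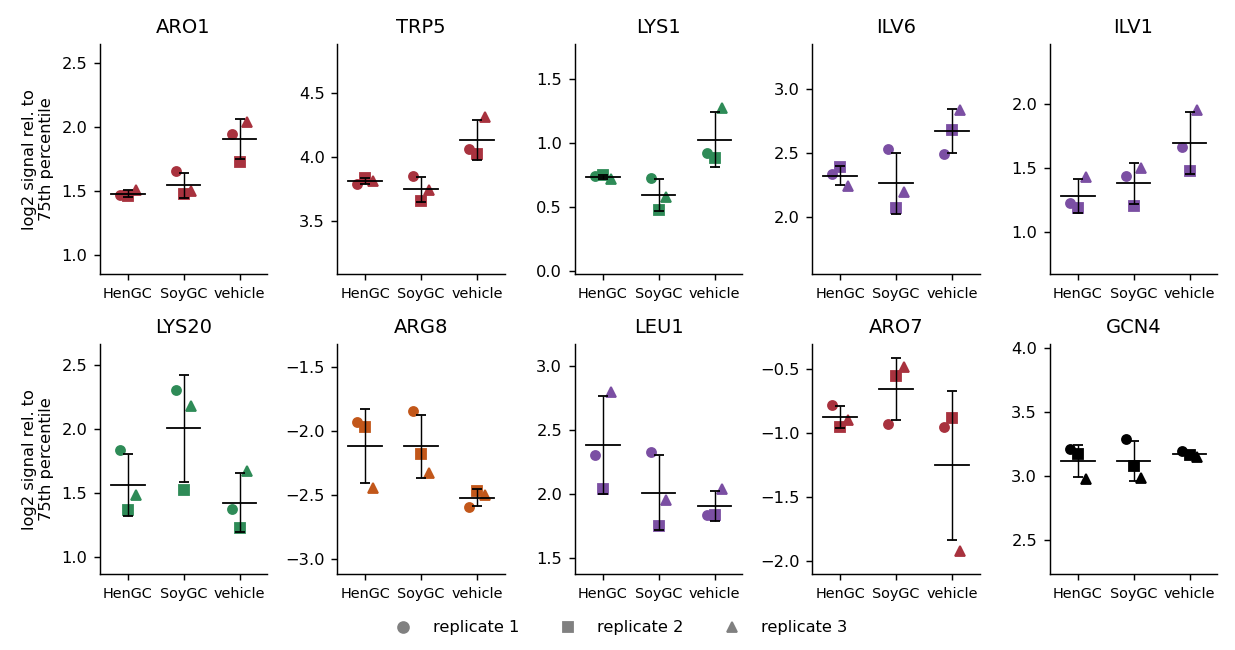
Levels of 10 genes on each of 9 arrays (marker shape by replicate), as log2 signal relative to the 75th percentile of the array, with the group mean (bar) and SD over 3 arrays (whiskers), in HenGC, SoyGC and vehicle. The vertical span is equal in every panel and the offset differs. ARO1, TRP5 and LYS1 lie below vehicle on all treated arrays, vehicle 3 stands alone for ARO7, and GCN4 covers 2.97 to 3.29.

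HenGC and SoyGC were also set against each other. The median difference over the 39 genes was -0.051, with 24 negative (61.5%), against a median of 0.0145 and 47.1% negative over all genes. The member median turned to 0.011 without SoyGC 1 and 0.035 with array weights. The range was -0.44 for LYS20 to 0.37 for LEU1, and the 95% interval lay within 2-fold for 39 of 39 members, where 92.9% of all genes did so. LYS4 was the 1 member with an unadjusted p under 0.05, or 2.56%, against 12.7% of all genes, at -0.26 ± 0.11 (limma adjusted p = 0.366). In the lysine pathway 6 of 7 differences were negative, with a median of -0.12. The HenGC arrays lay below all SoyGC arrays for HIS6, LYS4 and LYS12, 3 of 39 members, and above them for 0, against 11% and 10.5% of all genes.

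Counted over arrays, HenGC lay below all vehicle arrays at 9 of 39 members, or 23.1%, and above them at 2, or 5.13%, where 17.7% and 12.2% of all genes did so. SoyGC lay below at 6, or 15.4%, and above at 1, or 2.56%, against 20.5% and 13.7% of all genes. Over the whole list the median difference was -0.054 in HenGC, with 27 of 39 negative, against 49.9% negative over all genes, and -0.034 in SoyGC, with 20 of 39 against 49.6%. The list median changed sign in both treatments after quantile normalization, to 0.0091 with 19 negative members in HenGC and 0.030 with 14 in SoyGC.

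**Figure D3:**
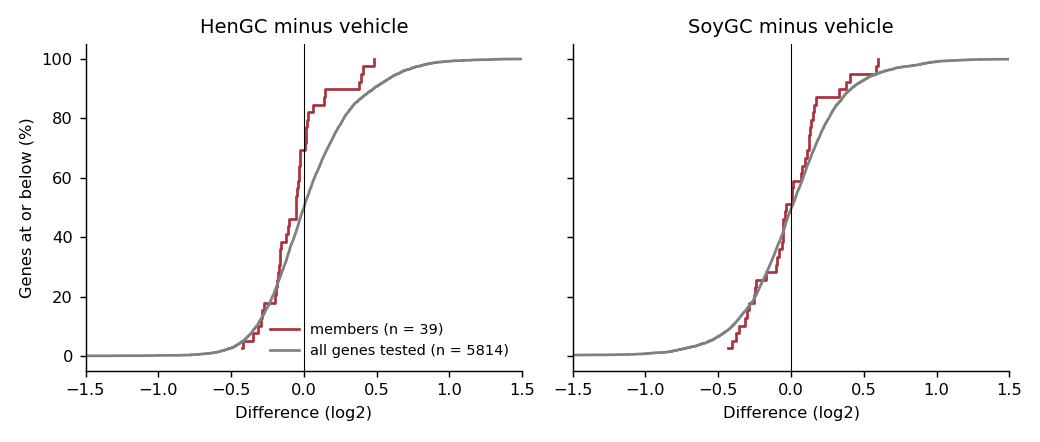
Cumulative share of genes (percent, vertical) at or below a given log2 difference (horizontal, drawn from -1.5 to 1.5) for the 39 genes (red) and all 5814 genes tested (grey), in HenGC minus vehicle (left) and SoyGC minus vehicle (right). The red curves stay between -0.43 and 0.48 on the left and -0.43 and 0.60 on the right.

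The sign of the list moved with the scan day. Within scan day 1 the median was 0.0065 in HenGC, with 19 of 39 negative against 52.4% of all genes, and 0.068 in SoyGC, with 14 against 56.4%. Within scan day 2, which compares replicate 3 of each group on 1 slide, it was -0.29 in HenGC, with 33 of 39 negative (84.6%) against 54.8% of all genes, and -0.18 in SoyGC, with 29 (74.4%) against 53%. In HenGC on scan day 2 the negative members were 6 of 6 histidine, 2 of 5 arginine, 6 of 7 lysine, 7 of 8 branched-chain, 8 of 9 aromatic and 3 of 3 serine genes. Scan day 1 HenGC arrays lay on a slide of their own, so slide and group cannot be told apart there.

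Vehicle 3 stood above the mean of vehicle 1 and 2 at 31 of 39 members, against 53.1% of all genes, with a median of 0.16. ARO7 was the 1 member over 2-fold away, and lower, as were 503 genes over the whole array, with 12 over 2-fold higher. The part of vehicle 3 in the member differences was not tested beyond the values without it. Without vehicle 3, 0 of 39 members passed in either treatment, and the list median was -0.033 in HenGC and 0.038 in SoyGC. Among HenGC arrays the members' within-group SD had a median of 0.12, among SoyGC arrays 0.17 and among vehicle arrays 0.13, against 0.12, 0.15 and 0.16 over all genes.

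**Figure D4:**
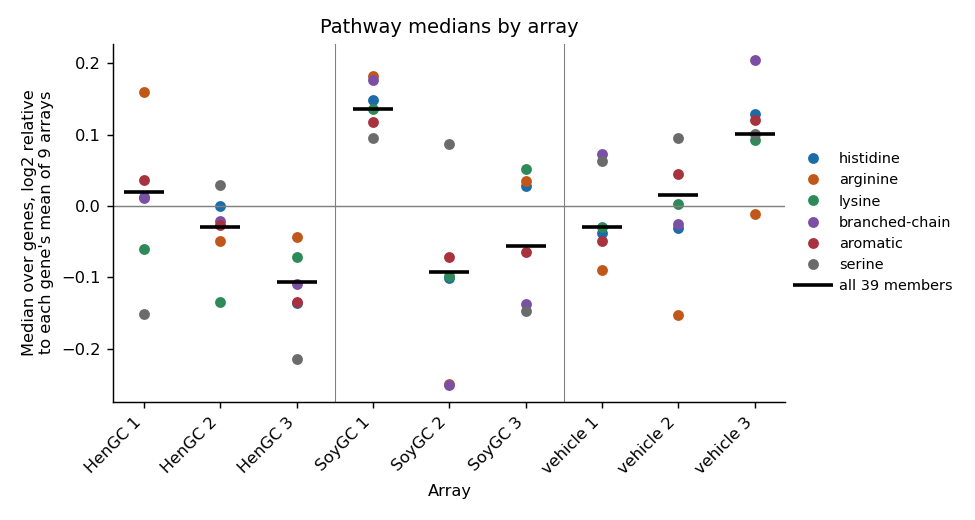
Median over the genes of each pathway (coloured points) and over all 39 genes (black bars) on each array, as log2 signal relative to each gene's mean of the 9 arrays. The bars run from -0.11 for HenGC 3 to 0.14 for SoyGC 1, and the 3 SoyGC bars alone cover -0.093 to 0.14.

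**Figure D5:**
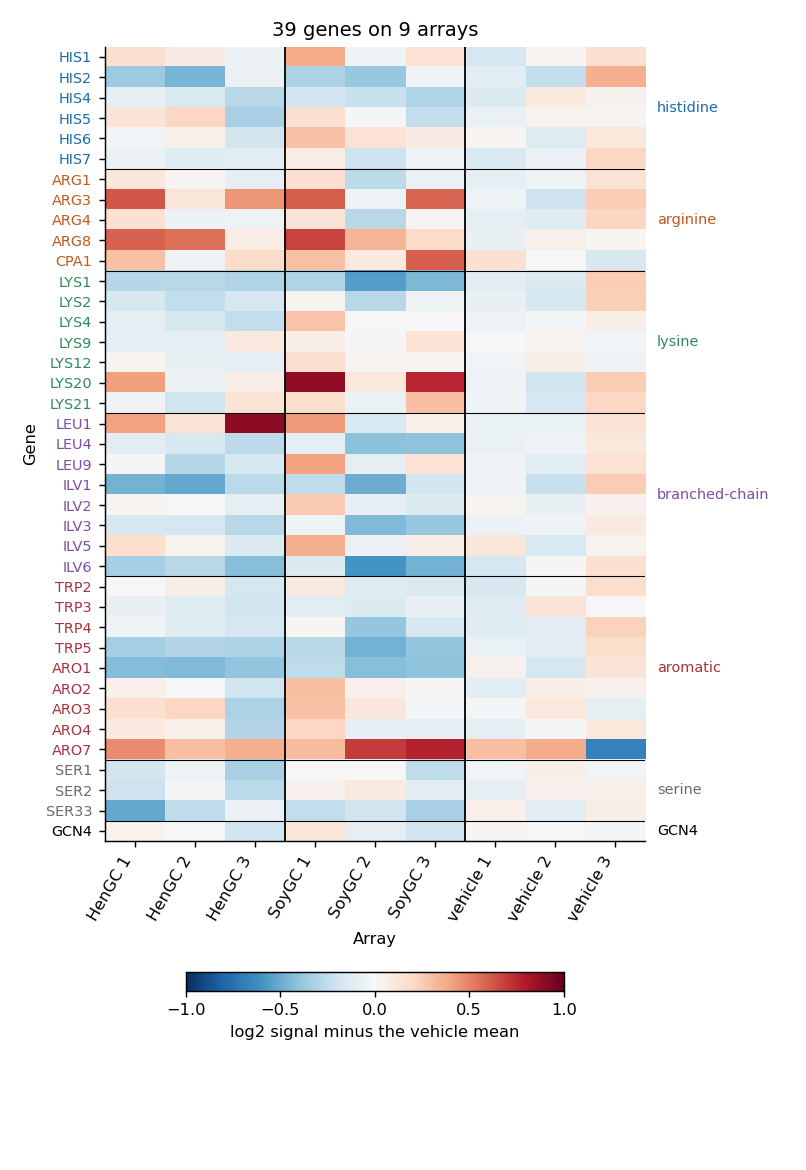
The 39 genes (rows, by pathway) on 9 arrays (columns), coloured by log2 signal minus the mean of the 3 vehicle arrays, with red for higher and blue for lower. LEU1 on HenGC 3, LYS20 on SoyGC 1 and 3 and ARO7 on SoyGC 2 and 3 are among the strongest red cells. ARO7 on vehicle 3 is among the strongest blue cells, and 0 of 39 genes passed limma's test.

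Of 47 related genes on a list of the same pathways and of Gcn4 control, 45 were tested, and HIS3 and LEU2 were not well above background. GDH1, the NADPH-dependent glutamate dehydrogenase that fixes ammonium into glutamate, was the 1 called gene of 45 (2.22%, against 9.27% of all genes in SoyGC) and fell in SoyGC. It stood at 1.67, 1.82 and 1.66 in HenGC, 1.64, 1.75 and 1.57 in SoyGC and 2.06, 2.05 and 2.13 in vehicle, all treated arrays below all vehicle arrays. The difference was -0.43 ± 0.091 [-0.64, -0.22] in SoyGC (limma adjusted p = 0.0322) and -0.37 ± 0.091 in HenGC (limma adjusted p = 0.0903). The SoyGC call held in 12 of 21 alternatives, over a range of adjusted p from 0.00875 to 0.304. It was lost without vehicle 3, at -0.40 (limma adjusted p = 0.0602), without vehicle 1 or 2 (adjusted p = 0.0519 and 0.0869) and without SoyGC 1, 2 or 3 (adjusted p = 0.0776, 0.0599 and 0.118). It was also lost with slide as a fixed block (adjusted p = 0.0562), on scan day 1 alone (adjusted p = 0.134) and in the authors' deposited table (adjusted p = 0.304).

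In HenGC 0 of the 45 genes passed limma's test, and 1 had a positive and 7 a negative difference at an unadjusted p under 0.05. In SoyGC these counts were 3 and 6, GDH1 included. The sums are 17.8% of 45 in HenGC, against 21.4% of all genes, and 20% in SoyGC, against 27.6%. HenGC lay below all vehicle arrays at 28.9% of the 45 and above them at 4.44%, against 17.7% and 12.2% of all genes. In SoyGC these shares were 22.2% and 11.1%, against 20.5% and 13.7%. Of 7 genes of Gcn4 control, 6 had negative differences in HenGC, all but PCL5, and 5 in SoyGC, where 49.9% and 49.6% of all genes did so. GCN2, the kinase upstream of GCN4, was at -1.65, -1.61 and -1.58 in HenGC, -1.48, -1.49 and -1.61 in SoyGC and -1.32, -1.34 and -1.24 in vehicle. Its treated arrays all lay below its vehicle arrays, with differences of -0.31 ± 0.083 in HenGC and -0.23 ± 0.083 in SoyGC (limma adjusted p = 0.109 in HenGC and 0.114 in SoyGC). PCL5, a cyclin that promotes the degradation of Gcn4 and is itself a Gcn4 target, was at 0.82, 0.70 and 0.49 in HenGC, 0.75, 0.63 and 0.72 in SoyGC and 0.46, 0.52 and -0.18 in vehicle. Vehicle 3 was its lowest array, and the differences were 0.40 ± 0.18 in HenGC and 0.44 ± 0.18 in SoyGC (limma adjusted p = 0.241 in HenGC and 0.161 in SoyGC). Without vehicle 3 they were 0.18 in HenGC and 0.21 in SoyGC.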

How the data were processed

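Agilent scanner files of 9 arrays were used. The deposited values are a linear fluorescence intensity per spot, background-subtracted and detrended by Feature Extraction 11.0.1.1, per the file headers and the submitters' processing notes, and not scaled between arrays. The authors' deposited table holds, for each probe, its 7 spots' intensity averaged on the linear scale (equal within 1e-06 for 100% of values), and served as an alternative. Its column medians were 1772 to 2634.

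Control and outlier spots were dropped, log2 was taken, and the 75th percentile of each array (5273 to 7803) was subtracted. Probes with over 50% of spots well above background on all 3 arrays of a group were tested. limma 3.58.1 in R 4.3.3 was fitted to all 9 arrays with a mean per group, and p-values were adjusted by Benjamini-Hochberg over 5814 genes. The number of arrays limits the precision. Only the limma fit was tried on simulated data, with independent noise, no slide or scan-day effect and planted changes larger than any member difference.

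SoyGC 1 and 2 shared slide 1 with vehicle 1 and 2, HenGC 1 and 2 were on slide 2, and replicate 3 of each group was on slide 3. Slides 1 and 2 were scanned on day 1 and slide 3 on day 2.

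Members and lists were chosen with earlier results of these data known. Values on every array are given for GCN4, the highest and lowest member of each pathway against vehicle, and the LYS20, LEU4 and ARO3 paralog pairs. The planned normexp correction on mean signals was not run, since the files hold median signals, which were used instead. Alternatives covered background, scaling, probe filter, batches, weights and left-out arrays. Gene order in the R64 table served only to name neighbouring genes, and sequences were not used here.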

Additional observations from a re-analysis of the deposited data

How the results depend on the processing

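Of 21 alternatives, 19 planned and 2 chosen after seeing the data (normexp on median signals and the authors' table scaled to the 75th percentile), most left 0 of 39 members past the threshold in every comparison. The exceptions in SoyGC were 1 member with normexp on median signals, 2 with a scan day block, 2 with a random slide block and 7 with array weights. Of all genes in SoyGC, 8.22% passed with normexp, 12.8% with the scan day block and 11% with the random slide block. In HenGC 5 members passed and in the F-test 7 with array weights, a fit whose weights stopped before convergence and which called 14.8% and 21.4% of all genes in HenGC and SoyGC. The cause was not tested. Leaving out each array in turn gave 0 to 0 members. Of 2457 values of single members under a setting, 180 changed sign where neither value was called and 17 newly passed. With 0 members called before any change of setting, no call could be lost or reversed. HenGC 1 and 2 were the only arrays on slide 2, so with slide as a fixed block the HenGC difference rests on HenGC 3 alone. The whole-list median in HenGC was -0.20 in that fit. It was also -0.20 in the authors' table, where the median of all genes was -0.15. In SoyGC it turned to 0.038 without vehicle 3, 0.049 without SoyGC 2 and 0.039 without SoyGC 3.

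Over all genes, 69 passed in HenGC, against 39 after quantile normalization, 45 without the dim filter and 3 in the authors' table. The count was 125 with scan day as a block, 862 with array weights and 3 to 50 with an array left out. No HenGC count is given with slide as a fixed block, since that fit rests on HenGC 3 alone. In SoyGC 539 passed, against 8 in the authors' table, 35 on scan day 1 alone, 188 with slide as a fixed block, 1246 with array weights and 2 to 387 with an array left out, and in HenGC against SoyGC 0, against 23 with array weights. With the replicate block 0 members passed in each comparison, and 86, 587 and 0 genes in all. Deviations of arrays with the same number correlated at -0.65 to 0.56. Whether the numbers pair the samples cannot be decided from these values, since the replicate 3 arrays also share a slide and a scan day.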
